A study of Mus musculus with 12 samples.

Results

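Aortic endothelial cells, by their labels, were profiled by RNA-seq from Glra2 global knockout mice (KO) and wild-type mice (WT), all infused with angiotensin II and all given glycine by intraperitoneal injection. The comparison takes 6 of the 12 libraries of the series, namely KO glycine 4 to 6 and WT glycine 4 to 6, chosen by genotype and treatment alone. The other 6 libraries, KO and WT given angiotensin II and saline, serve here as a second genotype contrast that shares no library with the first. The labelled glycine dose is 800 mg/kg per day in KO glycine 4 and 6 and in WT glycine 4 to 6, but 80 in KO glycine 5. The knockout is of the whole animal, so every cell type of the aorta carries it, and angiotensin II is common to all groups. The labels give no strain, age or animal identity, and p-values therefore measure the spread between libraries, which may be technical. The comparison asks which genes differ with genotype while glycine, a ligand of the deleted receptor, is supplied.

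Glra2 codes for one of the ligand-binding chains (α2) of glycine receptors, chloride channels opened by glycine and best known from developing neurons. Nos3 codes for endothelial nitric oxide synthase, which makes the nitric oxide that relaxes arterial smooth muscle. Interferons switch on genes that block viral translation, sense foreign nucleic acid or attack the vacuoles of intracellular microbes. Interferon gamma in particular raises the immunity-related GTPases, the guanylate-binding proteins (GBPs) and the genes of antigen presentation.

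Library totals ran from 14.5 to 24.3 M estimated counts over the series. Levels are given as CPM, the estimated counts scaled by library size and the TMM factor. Transcripts of the mitochondrial genome made up 30.6 ± 4.92% of KO glycine counts and 35.1 ± 4.12% of WT glycine counts (SD, n = 3 each). WT glycine 4 stood apart, with 12945 genes detected and 2.90% of otherwise well-covered genes at 0 counts. A gene was called at an adjusted p below 0.05 in edgeR's quasi-likelihood test with Benjamini-Hochberg adjustment over 13928 genes, and log2 values are KO over WT with their standard error (SE).

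Of the tested genes 357 (2.56%) differed between KO and WT under glycine, 209 (1.50%) higher and 148 (1.06%) lower in KO, and 269 of them by at least 2-fold. Without any such adjustment 1919 genes had p below 0.05, and the median log2 of all genes was −0.01. On the authors' FPKM values, as log2(value + 1), the same genes gave 446 higher and 106 lower. The count was 190, 179 and 186 without KO glycine 4, 5 and 6, and 194 and 139 without WT glycine 5 and 6. Under saline the same contrast called 1573 genes (11.3%), where mitochondrial transcripts made up 39.9 ± 9.12% of counts in KO and 55.6 ± 7.96% in WT, a difference whose part in the saline calls was not tested. The volcano plot shows the named genes among all those tested.

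**Figure D1:**
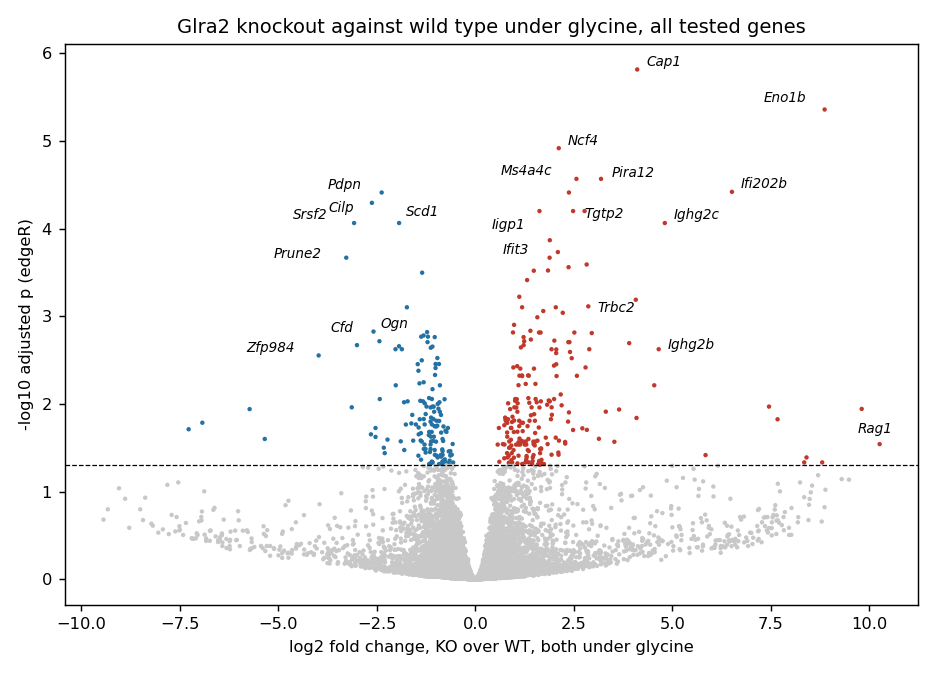
Log2 fold change of KO over WT under glycine (x axis) against −log10 of the adjusted p (y axis) for 13928 genes. The dashed line marks an adjusted p of 0.05, with the 209 genes higher in KO in red and the 148 lower in blue. Eno1b, Cap1 and Ncf4 lie highest on the right, and Pdpn and Cilp on the left.

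Glra2 (ENSMUSG00000018589) itself had 0 counts in all 12 libraries, KO and WT, and so gave no check of the genotype labels. In the glycine libraries 3 counts correspond to 0.138 to 0.203 CPM. Glra3, Glra4 and the glycine transporter gene Slc6a5 also had 0 counts in all libraries, and Glra1 had at most 3 in any. All were too low to be tested, so no ligand-binding chain of the receptor was. None of 23 tested genes of the list of glycine receptors, glycine transport and glycine metabolism was called by edgeR or DESeq2 (median log2 −0.01, 4 with an unadjusted p below 0.05). Nos3 had 9.10, 1.56 and 8.77 CPM in KO glycine and 1.22, 6.94 and 6.70 CPM in WT glycine. Its lowest library in each genotype was far below the others, and the groups overlapped (log2 0.38 ± 0.68, adjusted p = 0.908, higher in KO by this estimate but lower without WT glycine 4, at −0.08). None of 29 tested genes of nitric oxide and vasodilation was called by edgeR (median −0.00, 5 with an unadjusted p below 0.05), and DESeq2 called 1.

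Of 30 endothelial identity genes edgeR called none under glycine (median log2 −0.14), 2 had an unadjusted p below 0.05, and DESeq2 called 1. Their summed level was 1106 to 1533 CPM in KO glycine and 1428 to 1672 CPM in WT glycine. Cdh5, the junction cadherin of endothelium, had 19.6, 6.21 and 10.8 CPM in KO glycine and 14.6, 13.8 and 14.3 CPM in WT glycine (−0.22 ± 0.43, adjusted p = 0.920), with an estimate of 0.10 without KO glycine 5. Pecam1, another junction gene, had 132, 88.2 and 141 CPM in KO glycine and 104, 143 and 150 CPM in WT glycine (−0.14 ± 0.21, adjusted p = 0.881), and 0.05 without KO glycine 5. KO glycine 5 was the lowest library for both genes. Under saline 8 of the 30 endothelial genes were lower in KO and none higher (median −0.85). Cdh5 was among them (−1.74, 0.0168), a call lost in 3 of 6 leave-one-out fits. Genes of other cell types were present in every library. Fibroblast genes summed to 14904 to 18242 CPM in KO glycine and 26034 to 27963 CPM in WT glycine, and resident macrophage genes to 11164 to 12500 CPM in KO glycine and 10954 to 11492 CPM in WT glycine. For all lists of cell types, fewer cells of a type and less RNA per cell cannot be told apart.

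Interferon-inducible genes were higher in KO under glycine. Of 28 tested genes of the IFIT and OAS families and the nucleic acid sensors, 17 rose in KO under glycine and none fell (median log2 1.34). Of 17 immunity-related GTPases and GBPs, 11 rose and none fell (median 1.37). The promoters of 4 of these genes are shown because their genes rose together and each holds the core of an interferon-stimulated response element. The letters searched were GAAA, any 2 bases and GAAA again, on both strands, in the 250 bases before the RefSeq transcription start (build GRCm38.p6), with matches in capitals.
Ifit3, chr19:34583279-34583528, + strand: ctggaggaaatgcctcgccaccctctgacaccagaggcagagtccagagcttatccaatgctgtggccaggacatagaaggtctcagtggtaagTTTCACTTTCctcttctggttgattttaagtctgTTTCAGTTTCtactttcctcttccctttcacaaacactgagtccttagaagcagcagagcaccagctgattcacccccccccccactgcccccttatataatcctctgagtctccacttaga
Tgtp2, chr11:49064213-49064462, - strand: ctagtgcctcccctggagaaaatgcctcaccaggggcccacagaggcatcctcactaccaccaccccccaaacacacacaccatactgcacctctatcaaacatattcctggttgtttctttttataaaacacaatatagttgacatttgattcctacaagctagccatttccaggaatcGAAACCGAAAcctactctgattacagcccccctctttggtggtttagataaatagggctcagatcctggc
Igtp, chr11:58199306-58199555, + strand: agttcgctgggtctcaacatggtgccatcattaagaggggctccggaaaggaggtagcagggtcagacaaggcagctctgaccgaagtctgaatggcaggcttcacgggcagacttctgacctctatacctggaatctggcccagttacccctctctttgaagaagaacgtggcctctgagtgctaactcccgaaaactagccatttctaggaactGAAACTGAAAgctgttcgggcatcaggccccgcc
Gbp2, chr3:142620413-142620662, + strand: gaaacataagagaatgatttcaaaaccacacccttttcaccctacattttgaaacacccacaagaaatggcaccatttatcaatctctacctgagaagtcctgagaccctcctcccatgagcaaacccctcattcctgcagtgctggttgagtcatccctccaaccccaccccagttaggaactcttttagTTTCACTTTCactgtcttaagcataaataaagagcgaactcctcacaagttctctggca

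The match lay 156 and 122 bases before the start in Ifit3, and at 70 bases in Tgtp2, 34 in Igtp and 59 in Gbp2, counted to the match's first base in the window. In Ifit3 and Gbp2 it read on the strand opposite to the gene. These 4 promoters were picked after the matches were known. Among all tested genes the motif was held by 372 (3.48%) of the 10703 that have a listed promoter. Among the genes that rose it was found in 7 of 12 of the IFIT, OAS and sensor genes with a promoter (58.3%) and in 7 of 8 of the GTPases and GBPs (87.5%). It was present in 33 of 155 of all called genes higher in KO (21.3%) and in 2 of 114 of those lower in KO (1.75%). Both lists were drawn up as interferon-inducible genes and only their called members were counted, so these shares lend no separate support. The same members are part of the 155. These matches describe letters in the window and nothing about binding.

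Ifit3, which binds viral RNA in complex with its relatives, had 223, 238 and 241 CPM in KO glycine and 61.4, 72.6 and 55.8 CPM in WT glycine. All KO libraries exceeded all WT libraries by more than the spread within either group (log2 1.89 ± 0.21, adjusted p = 0.000215). Zbp1, a sensor of Z-form nucleic acid, had 47.9, 55.0 and 49.5 CPM in KO and 9.02, 10.5 and 9.97 CPM in WT (2.37 ± 0.28, 0.000275). Ifit1 rose by 1.72 ± 0.23 and Ifit2 by 2.22 ± 0.30, with adjusted p of 0.000871 and 0.000912. These 4 calls survived the removal of any 1 library. Oasl1, a relative of the oligoadenylate synthetases, had 41.4, 41.9 and 41.0 CPM in KO and 3.93, 2.44 and 3.54 CPM in WT (3.65 ± 0.70, 0.0116), a call lost without WT glycine 5 (0.0601) and without WT glycine 6 (0.0592). Under saline Oasl1 had 17.1, 33.8 and 21.7 CPM in KO and 0, 1.3 and 0 CPM in WT, again higher in KO (6.03, 0.000327), and its interaction was −2.38 (0.348). The list's 17 rises were 11 without WT glycine 5 and 11 without WT glycine 6. Ifit3 has a near-identical copy, Ifit3b, and reads may be split between the pair.

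Under saline 3 of the 28 list members were higher in KO, Oasl1, Oas1a and Oas1g, against 841 (6.04%) of all genes higher there. Ifit3, which was not among them, had 66.5, 61.6 and 51.2 CPM in KO and 46.6, 50.6 and 82.2 CPM in WT, so that the genotypes overlapped there (log2 −0.00, adjusted p = 1.0). The test of the difference between the genotype effects, the genotype by glycine interaction, was past the threshold for Ifit3 (1.89, adjusted p = 0.00703) in all 12 leave-one-out fits. In the list 5 of 28 genes were called higher in the interaction (38 of all genes, 0.273%) and none lower. That number was 1 to 3 without KO glycine 4, 5 or 6, WT glycine 5 or 6, KO saline 2 or 3 or WT saline 3, and 8 without WT glycine 4.

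For several GTPases the genotype difference also differed between treatments. Tgtp2, a GTPase induced by interferon gamma, had 539, 565 and 449 CPM in KO glycine and 108, 92.7 and 77.3 CPM in WT glycine (log2 2.48 ± 0.25, adjusted p = 6.3e-05). Under saline it had 178, 136 and 109 CPM in KO and 187, 329 and 192 CPM in WT, no KO library exceeding a WT one (−0.74, 0.0542). The interaction was 3.23 (0.000502). Tgtp1, a near-identical copy of Tgtp2, may share its reads, and each single level is uncertain.

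Iigp1, which disrupts the vacuoles of intracellular parasites, was higher in KO under glycine and lower in KO under saline. It had 207, 212 and 166 CPM in KO glycine and 44.5, 49.0 and 64.2 CPM in WT glycine (log2 1.89 ± 0.20, adjusted p = 0.000136). Under saline the order was the reverse, with 50.6, 34.5 and 38.1 CPM in KO and 129, 116 and 154 CPM in WT (−1.69, 8.38e-05). Neither pair of groups overlapped, and the interaction of 3.59 (2.28e-05) kept its call in all 12 leave-one-out fits. Ifi47 rose by 1.48 ± 0.18 (0.000302), Gbp2 by 1.40 ± 0.20 (0.00146) and Igtp by 1.14 ± 0.19 (0.00395). Ifi47 was also higher in KO under saline (0.94, 0.00240), and its interaction was not called (0.54, 0.361). The 11 rises of this list were 7 without KO glycine 4, 6 without KO glycine 5 and 6 without WT glycine 6. In the interaction 7 of 17 genes were called higher and none lower. Under saline 1 of the 17 was higher in KO and 4 were lower (median −0.30).

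Irf7, the factor that amplifies type I interferon, had 105, 152 and 144 CPM in KO glycine and 17.4, 30.7 and 22 CPM in WT glycine, without overlap (log2 2.51 ± 0.36, adjusted p = 0.00153). Under saline Irf7 was also higher in KO (1.16, 0.0420), a call lost in 5 of 6 leave-one-out fits. The interaction was not called for Irf7 (1.35, 0.224). Of 26 tested interferon regulatory factors, STATs and receptors 2 rose in KO under glycine, Irf7 among them, and none fell (median 0.30). Under saline 7 of the 26 were higher and none lower (median 0.63). T cell genes moved in the same direction as the interferon genes, at a summed 427 to 462 CPM in KO glycine and 80.7 to 159 CPM in WT glycine, while the resident macrophage sum overlapped between the genotypes. The part of T cells in the interferon result was not tested.

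**Figure D2:**
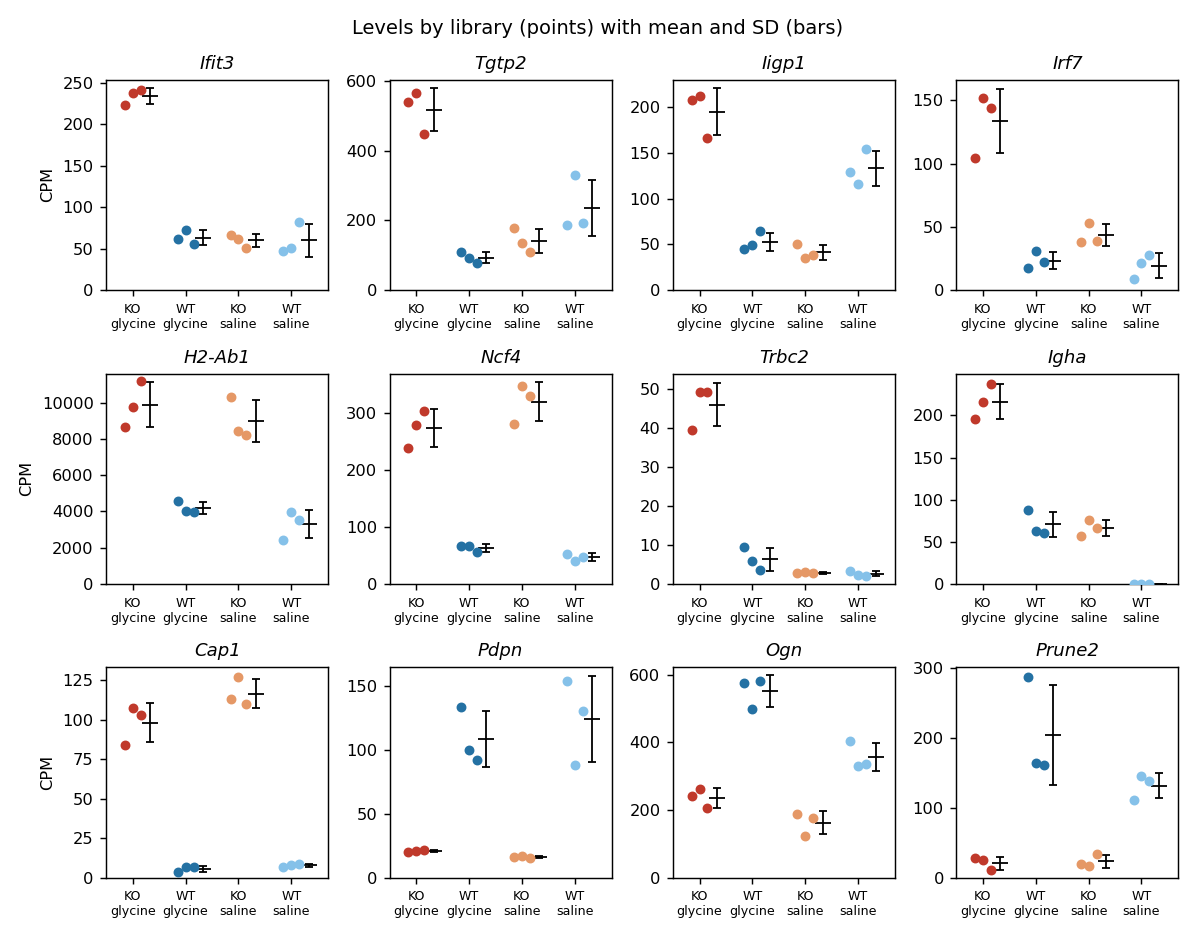
CPM by library (points; y axis linear from 0) for 12 genes in KO glycine, WT glycine, KO saline and WT saline, with the group mean and SD beside them (n = 3). Ifit3 and Tgtp2 are high in KO glycine alone of the 4 groups, H2-Ab1, Ncf4 and Cap1 are high and Pdpn, Ogn and Prune2 low in KO under both treatments.

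Antigen presentation genes rose as well. Of 12 tested MHC class II genes 7 rose in KO under glycine and none fell (median log2 0.98), and of 22 class I genes 6 rose and none fell (median 0.61). H2-Ab1, a class II β chain, had 8680, 9787 and 11169 CPM in KO glycine and 4562, 4023 and 3958 CPM in WT glycine, every KO library above every WT library (1.24 ± 0.18, adjusted p = 0.00192). Ctss, the protease that trims the class II invariant chain, had 1762, 1761 and 1765 CPM in KO and 787, 758 and 777 CPM in WT (1.19 ± 0.16, 0.000789). H2-Aa rose by 0.96 ± 0.16 (0.00383) and H2-DMb1, a peptide exchange factor, by 1.18 ± 0.20 (0.00473).

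Class II genes were also higher in KO under saline, where 7 of 12 were called. The saline log2 was 1.44 for H2-Ab1 and 2.26 for Ctss. The class II calls did not move by more than 1.5 times with any library left out. Class I was less stable. Psmb8, a subunit of the immunoproteasome, had 239, 223 and 276 CPM in KO glycine and 96.7, 111 and 108 CPM in WT glycine (1.23 ± 0.18, 0.00213) and kept its call in every leave-one-out fit. H2-T22 had 128, 159 and 139 CPM in KO and 73.7, 68.4 and 68.6 CPM in WT (1.01 ± 0.19, 0.00879, and 0.0515 without WT glycine 6). H2-K1, a classical class I chain, rose by 0.81 ± 0.18 (0.0236), a call that no leave-one-out fit kept (0.0519 to 0.0914). The 6 class I rises were 2 without KO glycine 4, 5 or 6, 3 without WT glycine 5 and 1 without WT glycine 6.

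All 24 tested genes of the T cell receptor and its signalling had a positive log2 (median 1.65), and 4 rose: Trbc2, Trbc1, Lck and Tcf7. Trbc2, a constant region of the receptor β chain, had 39.6, 49.1 and 49.1 CPM in KO glycine and 9.36, 5.96 and 3.59 CPM in WT glycine (2.87 ± 0.37, adjusted p = 0.000770). Lck, the kinase that starts receptor signalling, had 69.6, 69.2 and 53.8 CPM in KO and 17.3, 21.7 and 12.9 CPM in WT (1.89 ± 0.35, 0.00933, and 0.0607 without WT glycine 6). The genotypes did not overlap for either gene. Under saline Trbc2 had 2.68, 3.15 and 2.87 CPM in KO and 3.36, 2.42 and 2.15 CPM in WT, and the interaction was 2.74 (0.0198), lost without KO glycine 5 or 6, WT glycine 5 or KO saline 3 (0.0544 to 0.0737). Trbc1 (2.80 ± 0.46, 0.00383) shares sequence with Trbc2, so that reads may be split between them. Without WT glycine 6 the 4 rises were 2. Of 13 NK and cytotoxic genes 1 was called.

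Of 13 tested thymocyte genes Rag1 and Satb1 were called higher in KO glycine. Rag1, the recombinase of developing lymphocytes, had 11.5, 11.4 and 2.43 CPM in KO glycine and 0 counts in every WT glycine library, and so was at least 152-fold higher by a floor of 3 counts over the WT group, which covers counting error only. It passed the filter on low counts through KO glycine alone, so that its call is a description and lends no support, and under a filter of 10 counts in at least 6 libraries it was not tested. Its adjusted p of 0.0287 passed 0.05 only with all glycine libraries or without WT glycine 4 (0.0531 to 0.122 in the other 5 leave-one-out fits). Satb1, a chromatin organiser of T cells, had 41.1, 58.7 and 58.7 CPM in KO and 15.9, 13.7 and 7.18 CPM in WT (2.11 ± 0.50, 0.0358), and likewise kept its call without WT glycine 4 alone (0.0662 to 0.163 in the others). The genotypes did not overlap for either gene, which for Rag1 was required by the rule that named it.

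Antibody genes were higher in KO under glycine. Of 12 immunoglobulin constant regions 4 rose and none fell (median log2 1.55), a number that was 7 without WT glycine 5. Ighg2c, an IgG constant region, had 149, 128 and 155 CPM in KO glycine and 6.85, 6.94 and 1.64 CPM in WT glycine (4.81 ± 0.50, adjusted p = 8.63e-05). Ighg2b had 153, 164 and 139 CPM in KO and 5.70, 10.2 and 2.11 CPM in WT (4.65 ± 0.72, 0.00237). Every KO library was far above every WT library for both IgG genes, and the rule that named them required a lack of overlap. Constant regions of one class resemble each other, and reads may be split between them. Under saline 7 of the 12 constant regions were higher in KO and none lower (median 1.45). Ighg2c was higher there by 3.81 (0.000155) and Ighg2b by 3.23 (0.0140), the Ighg2b call being lost in 2 of 6 leave-one-out fits.

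Igha, the constant region of IgA, had 196, 215 and 238 CPM in KO glycine and 88.3, 62.9 and 60.6 CPM in WT glycine (log2 1.62 ± 0.23, adjusted p = 0.00153). Under saline it had 56.4, 75.8 and 66.8 CPM in KO but 0.190, 0.464 and 0.0615 CPM in WT. The WT saline libraries stood far below all other groups, and the interaction was −6.62 (4.04e-06) and called in all 12 leave-one-out fits. Igkc, the κ constant region, rose by 1.49 ± 0.25 (0.00395) and Jchain, which joins antibody units, by 1.56 ± 0.29 (0.00956, and 0.0624 without WT glycine 6). Both were also higher in KO under saline, Igkc by 1.74 (0.000323) and Jchain by 2.79 (4.56e-05). Of 120 tested immunoglobulin variable segments 6 were higher and 1 lower. Of 20 B cell and plasma cell genes 1 was called, with 12 positive and a median log2 of 0.18, and as a list they summed to 557 to 659 CPM in KO glycine and 466 to 658 CPM in WT glycine, overlapping.

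Of 23 inflammatory monocyte genes 5 rose in KO under glycine and none fell (median log2 0.48), against 14 higher and 1 lower in KO under saline (median 1.89). In the interaction 1 of the 23 was called lower and none higher. Ly6c2, the marker of classical monocytes, had 59.9, 68.7 and 77.5 CPM in KO glycine and 10.5, 10.4 and 5.70 CPM in WT glycine (2.96 ± 0.42, adjusted p = 0.00155). Plac8 had 159, 199 and 213 CPM in KO and 45.6, 34.1 and 30.3 CPM in WT (2.38 ± 0.22, 3.87e-05). The genotypes were well apart for both genes. Chil3, a chitinase-like protein of alternatively activated macrophages, rose by 2.06 ± 0.35 (0.00481), Clec4e, a receptor for mycobacterial glycolipid, by 1.86 ± 0.34 (0.00912) and the cytokine gene Il1b by 1.66 ± 0.31 (0.00933, and 0.0552 without WT glycine 6).

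None of 25 resident macrophage genes was called by edgeR under glycine (median log2 0.07). An unadjusted p below 0.05 was reached by 5, and DESeq2 called 3. Under saline 19 of the same 25 were higher in KO, and 10 were called lower in the interaction (118 of all genes, 0.847%), or 6 without KO saline 3. Mrc1, the mannose receptor, had 279, 228 and 194 CPM in KO glycine and 340, 283 and 280 CPM in WT glycine (−0.37 ± 0.19, adjusted p = 0.437). In saline it had 359, 274 and 396 CPM in KO and 98.2, 148 and 124 CPM in WT, with an interaction of −1.84 (0.00519). Lyz2, lysozyme, differed by 0.07 ± 0.18 under glycine (0.944) and by 1.96 under saline (1.16e-05), with an interaction of −1.89 (0.00210). Both interactions were called in all 12 leave-one-out fits. Igtp, Mrc1 and Lyz2 were chosen for naming after their values were seen. Fcgr1, the high-affinity IgG receptor, was the member nearest to the threshold under glycine (1.08 ± 0.28, 0.0579).

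Lysosomal hydrolases gave similar counts. Ctss was the 1 of 30 to rise under glycine, against 19 of 30 higher in KO under saline, and 10 of 30 were called lower in the interaction. That number was 5 without KO glycine 4, WT glycine 5, WT glycine 6 or KO saline 3 and 6 without KO glycine 5, KO glycine 6, KO saline 2 or WT saline 3. Spp1, osteopontin, which activated macrophages secrete, had 501, 470 and 372 CPM in KO glycine and 164, 140 and 131 CPM in WT glycine (log2 1.63 ± 0.31, adjusted p = 0.0110), lost without WT glycine 5 (0.0519) and WT glycine 6 (0.0668). Its difference under saline was larger, at 4.99 (1.11e-06), with an interaction of −3.37 (0.00200). Its list, the lipid-laden and SPP1 macrophage genes, did not move with it: of 21 members 4 rose and Apoe fell under glycine, 9 had a positive log2 (median −0.040), and the list summed to 8380 to 8704 CPM in KO glycine, below the 9481 to 9899 CPM in WT glycine.

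Ncf4, the p40 subunit of the phagocyte NADPH oxidase, had 238, 279 and 303 CPM in KO glycine and 67.3, 65.9 and 55.7 CPM in WT glycine (log2 2.12 ± 0.17, adjusted p = 1.21e-05). Under saline it had 281, 346 and 330 CPM in KO and 53.2, 39.8 and 47.6 CPM in WT. Every KO library was above every WT library in both treatments. Rac2, the oxidase's GTPase, rose by 1.10 ± 0.19 (0.00611), and Cybb, its catalytic subunit, by 0.90 ± 0.19 (0.0188), the Cybb call being lost without KO glycine 4 or 5 or WT glycine 5 or 6 (0.0561 to 0.0980). With Ncf4 these were the 3 of 10 tested oxidase genes to rise, against 6 of 10 higher in KO under saline.

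Of 22 Fc receptors and paired immunoglobulin-like receptors Fcgr4, Cd300lf, Fcer1g and Pira2 rose and Cd300ld fell under glycine, while 19 were higher in KO under saline. Outside that list Pira12, an activating paired receptor, had 72.6, 66.3 and 55.6 CPM in KO glycine and 6.10, 8.65 and 6.49 CPM in WT glycine (log2 3.19 ± 0.28, adjusted p = 2.71e-05). Fcgr4, a receptor for IgG complexes, rose by 1.93 ± 0.30 (0.00237) and the inhibitory receptor gene Cd300lf by 2.06 ± 0.32 (0.00239). Cd300ld was the member that fell, with 76.3, 95.7 and 80.9 CPM in KO and 221, 241 and 213 CPM in WT (−1.42 ± 0.25, 0.00582). KO and WT did not overlap for Cd300ld, and its interaction was −1.88 (0.0170), lost without KO glycine 4 (0.0518) or KO glycine 6 (0.0508). Fcer1g, the shared signalling chain, rose by 0.83 ± 0.17 (0.0149), lost without KO glycine 6, WT glycine 5 or WT glycine 6 (0.0694 to 0.0744). Pira2 rose by 1.19 ± 0.30 (0.0484) and kept its call without WT glycine 5 alone (highest adjusted p 0.167 without WT glycine 6).

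**Figure D3:**
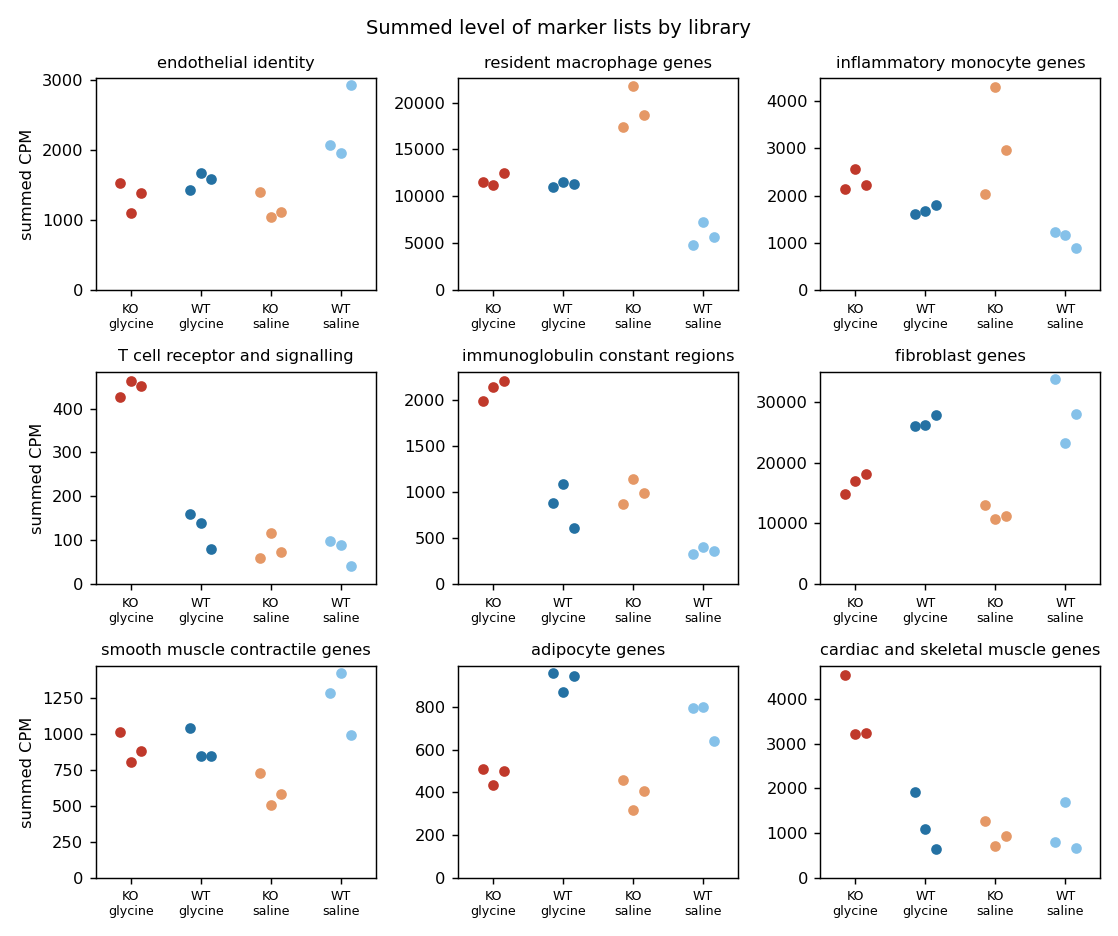
Summed CPM of 9 marker lists by library (points; linear y axis from 0) in KO glycine, WT glycine, KO saline and WT saline. Under glycine the KO and WT points overlap for endothelial, resident macrophage and smooth muscle genes, and lie apart for T cell, immunoglobulin, fibroblast, adipocyte and muscle genes.

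Eno1b, under both treatments, separated the genotypes almost as present and absent. It had 255, 263 and 287 CPM in KO glycine and 0.407, 0.684 and 0.580 CPM in WT glycine (log2 8.87 ± 0.63, adjusted p = 4.38e-06), and 400, 498 and 465 CPM in KO saline against 1.52, 0 and 3.75 CPM in WT saline. Its near-identical parent Eno1, the glycolytic enolase, was lower in KO under glycine, with 148, 150 and 184 CPM in KO glycine and 300, 346 and 338 CPM in WT glycine (−1.03 ± 0.15, 0.00173). Under saline Eno1 had 214, 276 and 254 CPM in KO and 304, 263 and 268 CPM in WT, overlapping (−0.17, 0.588). Reads of the pair can be split between them, and neither level is certain. Cap1, a regulator of actin turnover, had 84.1, 108 and 103 CPM in KO and 3.46, 6.75 and 6.75 CPM in WT (4.11 ± 0.26, 1.53e-06).

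Ifi202b, a DNA-binding member of the interferon-inducible p200 family, had 18.9, 17.1 and 11.4 CPM in KO glycine and 0.136, 0.0978 and 0.264 CPM in WT glycine (log2 6.51 ± 0.59, adjusted p = 3.8e-05). Irak4, the kinase below Toll-like receptors, had 83.0, 97.5 and 128 CPM in KO and 15.5, 13.3 and 16.3 CPM in WT (2.77 ± 0.27, 6.3e-05). Both were clear of overlap, which for Ifi202b was required by the rule that named it. Ifi202b had WT glycine levels near that of 3 counts, so among glycine libraries KO alone carried it past the filter on low counts. Ms4a4c rose by 2.57 ± 0.22 (2.71e-05) and Ly6k by 4.07 ± 0.52 (0.000647). None of these calls, nor those of Eno1b, Eno1 and Cap1, depended on a single library. The acute-phase gene Saa3 had 171, 223 and 274 CPM in KO and 27.3, 17.5 and 22.4 CPM in WT (3.31 ± 0.64, 0.0122), lost without WT glycine 5 (0.0643) or WT glycine 6 (0.0678). Cxcl14, a chemokine, rose by 2.36 ± 0.35 (0.00197), and Cfb, complement factor B, by 1.17 ± 0.24 (0.0164), lost without KO glycine 5, WT glycine 4 or WT glycine 6 (0.0514 to 0.0786). Of 19 complement components and receptors Cfb was the 1 to rise and Cfd the 1 to fall, and 9 had a positive log2.

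Prune2, among the largest falls in KO under glycine, had 27.9, 24.7 and 10.4 CPM in KO glycine and 287, 164 and 161 CPM in WT glycine (log2 −3.28 ± 0.37, adjusted p = 0.000215). Srsf2, a splicing factor, had 31.4, 25.9 and 35.3 CPM in KO and 365, 220 and 197 CPM in WT (−3.08 ± 0.32, 8.63e-05). WT glycine 4 was the highest library for both, and no libraries of the genotypes overlapped, as the rule that named them required. Zfp984 fell by 3.98 on the log2 scale (SE 0.62, 0.00279) and Bend4 by 3.0 (SE 0.45, 0.00213). All 4 calls survived the removal of any 1 library, and all 4 genes were also lower in KO under saline (−1.77 to −4.26).

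For other large falls the call was lost without any 1 of several libraries. Their log2 was negative in all 6 leave-one-out fits, but the naming rule required a lack of overlap. That largely fixed the sign in advance, so the sign lends no support. Zfp429 had a mean of 0.0946 CPM in KO glycine, below the level of 3 counts, and the KO glycine levels of C5ar2 were also low. C5ar2, a second receptor for complement C5a, had 0, 0.506 and 1.59 CPM in KO glycine and 48.1, 19.3 and 17.0 CPM in WT glycine (log2 −5.34 ± 1.18, adjusted p = 0.0251), lost without KO glycine 4 or 5 or WT glycine 4 or 6 (0.0541 to 0.113), with a log2 of −4.71 to −6.76 over the 6 fits. Zfp429 (−5.73 ± 1.10, 0.0114) was lost without KO glycine 6 or WT glycine 5 (0.0609 and 0.0519), and Rabl2 (−3.14 ± 0.60, 0.0109) without KO glycine 4 or 6 (0.0585 and 0.0533), its log2 lying between −2.80 and −3.77. Mup22 (−2.65, or −2.38 to −2.95 with a library left out), Plekha8 (−2.53, or −2.40 to −2.65) and Pik3r3 (−2.53, or −2.19 to −2.79) lost their calls in 5, 4 and 5 of the 6 fits. The adjusted p reached 0.104 without KO glycine 6 for Mup22, and 0.0881 and 0.107 without KO glycine 5 for Plekha8 and Pik3r3. Mup22 and Pik3r3 kept the call without WT glycine 4 alone, and Plekha8 without WT glycine 4 or WT glycine 5.

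Matrix genes were lower in KO under glycine. Of 29 tested proteoglycans and matricellular genes 7 fell and Spp1 rose (median log2 −0.66), of 25 collagen chains 4 fell and none rose (median −0.83), and of 22 fibroblast genes 4 fell and Ly6a rose (median −0.68). Ogn, the small proteoglycan osteoglycin, had 240, 263 and 205 CPM in KO glycine and 575, 499 and 582 CPM in WT glycine (−1.22 ± 0.17, adjusted p = 0.00151). Cilp, a matrix protein of cartilage and fibroblasts, had 7.86, 11.4 and 7.61 CPM in KO and 49.8, 56.4 and 60.0 CPM in WT (−2.63 ± 0.25, 5.08e-05). Each genotype kept to its own range in both genes, as the naming rule required of Cilp. Mfap4, which binds elastic fibres, fell by 1.01 (SE 0.17, 0.00389) and Fbln5, an organiser of elastic fibres, by 0.95 (SE 0.18, 0.0100), the Fbln5 call being lost without KO glycine 4 (0.0510) or KO glycine 6 (0.0555). Pdpn, podoplanin of lymphatic endothelium and fibroblasts, had 19.8, 20.8 and 22 CPM in KO and 133, 100 and 92.1 CPM in WT (−2.38 ± 0.22, 3.87e-05).

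Fewer collagen and fibroblast genes were called without any library but WT glycine 4, while the log2 of Col1a2, Col12a1 and Lum changed little. Col1a2, a chain of type I collagen, had 630, 762 and 876 CPM in KO glycine and 1383, 1783 and 1820 CPM in WT glycine, without overlap (log2 −1.14 ± 0.26, adjusted p = 0.0290), a call kept without WT glycine 4 alone (0.0619 to 0.137 in the other 5 fits), with a log2 of −1.02 to −1.26 over the 6. Col12a1 (−2.32 ± 0.54, 0.0316) was likewise kept without WT glycine 4 alone (0.0839 to 0.153), at −2.09 to −2.70. Lum, the proteoglycan lumican, had 1227, 1274 and 1145 CPM in KO and 2022, 1695 and 1945 CPM in WT (−0.64 ± 0.15, 0.0388) and was kept in no leave-one-out fit (0.0634 to 0.143), at −0.59 to −0.71, nor was the rise of Ly6a (0.73 ± 0.18, 0.0416, and at most 0.188). Aspn (−1.12 ± 0.22, 0.0143) was lost without KO glycine 4, KO glycine 6 or WT glycine 6 (0.0550 to 0.0737). The 4 falling collagens were 0 to 2 without any single library but WT glycine 4, and the 4 falling fibroblast genes were 0 or 1, and 7 without WT glycine 4. The 7 falling proteoglycans were 3 without KO glycine 4, 5 or 6 or WT glycine 5 and 2 without WT glycine 6. On FPKM the fibroblast list had 0 falls, with a median of −0.57. Under saline 17 of 22 fibroblast genes and 17 of 25 collagens were lower in KO (732 of all genes, 5.26%).

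Some adipocyte genes were lower in KO under glycine. Of 20 tested 4 fell and none rose, while 7 had a positive log2 (median −1.01). The summed level of the list was 435 to 508 CPM in KO glycine and 868 to 959 CPM in WT glycine. Car3, Cfd and Scd1 made up much of that sum, with means of 294, 160 and 165 CPM in WT glycine. In KO glycine their means were 114, 26.6 and 43.3 CPM. Cfd, the fat cell protease adipsin, had 26.2, 25.8 and 27.8 CPM in KO and 167, 139 and 173 CPM in WT (−2.58 ± 0.36, adjusted p = 0.00149). Scd1, a fatty acid desaturase, had 45.4, 41.8 and 42.6 CPM in KO and 132, 171 and 194 CPM in WT (−1.93 ± 0.20, 8.63e-05). The KO libraries of both genes were close together and far below WT, and the naming rule required a lack of overlap for Cfd. Car3 fell by 1.36 (SE 0.22, 0.00318), and Adipoq, adiponectin, by 2.30 (SE 0.54, 0.0364), Adipoq being kept without WT glycine 4 alone (0.113 to 0.171 in the other fits).

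Contractile genes were called in both directions. Of 19 smooth muscle genes Myh11 and Acta2 fell and Tpm1 rose (median log2 −0.73). Myh11, the smooth muscle myosin, had 2.03, 4.32 and 3.17 CPM in KO glycine and 19.1, 17.8 and 14.4 CPM in WT glycine (−2.43 ± 0.44, adjusted p = 0.00879). Acta2, smooth muscle actin, had 43.3, 53.8 and 47.1 CPM in KO and 112, 99.9 and 105 CPM in WT (−1.14 ± 0.22, 0.0110), lost without KO glycine 4 (0.0602) or KO glycine 6 (0.0513). Tpm1, a tropomyosin of several muscle types, rose by 0.92 ± 0.22 (0.0438), kept without WT glycine 4 alone (0.0700 to 0.194 in the others).

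All 18 tested cardiac and skeletal muscle genes had a positive log2 (median 1.54), and Tnnt2, Myl7, Mb, Myl4 and Actn2 rose in KO under glycine, against none higher under saline. Their summed level was 3219 to 4544 CPM in KO glycine and 645 to 1920 CPM in WT glycine. Tnnt2, cardiac troponin T, had 703, 528 and 497 CPM in KO and 302, 182 and 120 CPM in WT (1.52 ± 0.33, adjusted p = 0.0214), lost without KO glycine 4 or 5 or WT glycine 5 or 6 (0.0545 to 0.0960). Myl7, an atrial myosin light chain, had 367, 260 and 236 CPM in KO and 115, 75.7 and 35.1 CPM in WT (1.94 ± 0.46, 0.0379), and was kept without WT glycine 4 alone (0.0723 to 0.147 in the others). The genotypes did not overlap for either gene. Mb, Myl4 and Actn2 rose by 1.62, 1.74 and 1.44, and each was called without WT glycine 4 but with no other glycine library removed. The 5 rises of the list were 0 without KO glycine 4 or 5 or WT glycine 5 or 6, 1 without KO glycine 6 and 10 without WT glycine 4. Whether heart tissue in the samples has a part in these values was not tested.

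**Figure D4:**
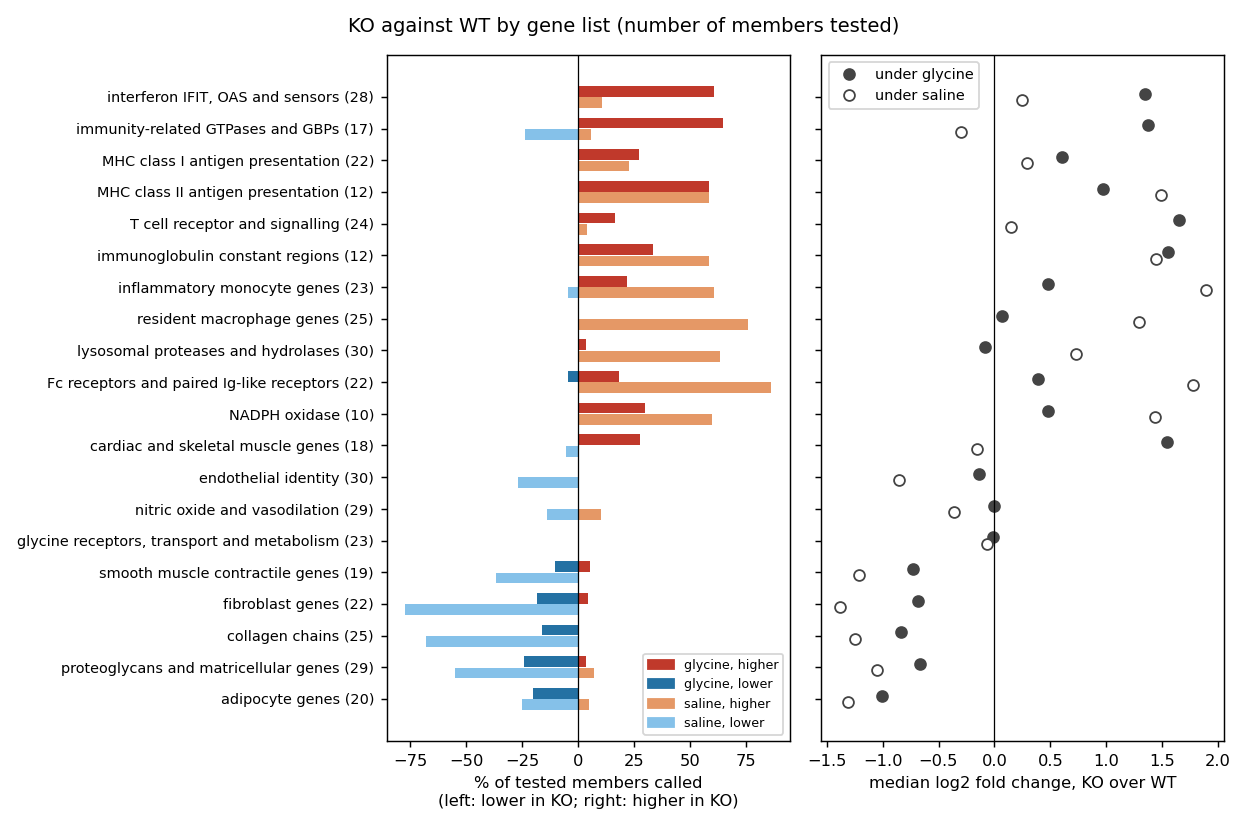
Left, share of each list's tested members called higher (right of 0) or lower (left of 0) in KO, in percent, under glycine (dark) and saline (pale). Right, median log2 fold change of KO over WT per list under glycine (filled) and saline (open); interferon lists have their median at 1.34 and 1.37 under glycine, and resident macrophage genes 19 of 25 called under saline and none under glycine.

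Set beside the saline contrast, 223 of the 357 glycine calls were also called in the same direction under saline, which is 62.5% of the glycine calls and 14.2% of the 1573 saline calls. For genes lower in KO the share was 76.4% of the glycine calls, and for genes higher in KO 52.6%. A further 7 were called in opposite directions. The interaction called 156 genes (1.12%), 38 higher and 118 lower, or 94 higher and 147 lower on FPKM, and 1823 genes had an unadjusted p below 0.05. Among the glycine calls 41 were called in the interaction, 34 of them higher in KO under glycine. The number of interaction calls was 80, 76 and 75 without KO glycine 4, 5 and 6, 338, 78 and 76 without WT glycine 4, 5 and 6, and 71 and 60 without KO saline 2 and 3.

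The genes with the smallest interaction p after Igha, Iigp1 and Tgtp2 were Cfp, Tmem106a and Ms4a4a, all lower in the interaction. Cfp, properdin of the complement system, had 223, 237 and 244 CPM in KO glycine and 194, 297 and 292 CPM in WT glycine, and 391, 448 and 463 CPM in KO saline and 99.2, 96.3 and 68.1 CPM in WT saline. The genotypes overlapped under glycine alone (interaction −2.46, adjusted p = 0.000540). Tmem106a, a membrane protein of macrophages, had log2 values of 0.04 under glycine (0.967) and 1.91 under saline, with an interaction of −1.87 (0.00187). Its value under glycine was −0.08 without KO glycine 5 and −0.04 without WT glycine 5. Ms4a4a, another macrophage gene, had 0.53 (0.312) and 3.24, with −2.71 (0.00187). All 3 interactions were called in the 12 leave-one-out fits.

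**Figure D5:**
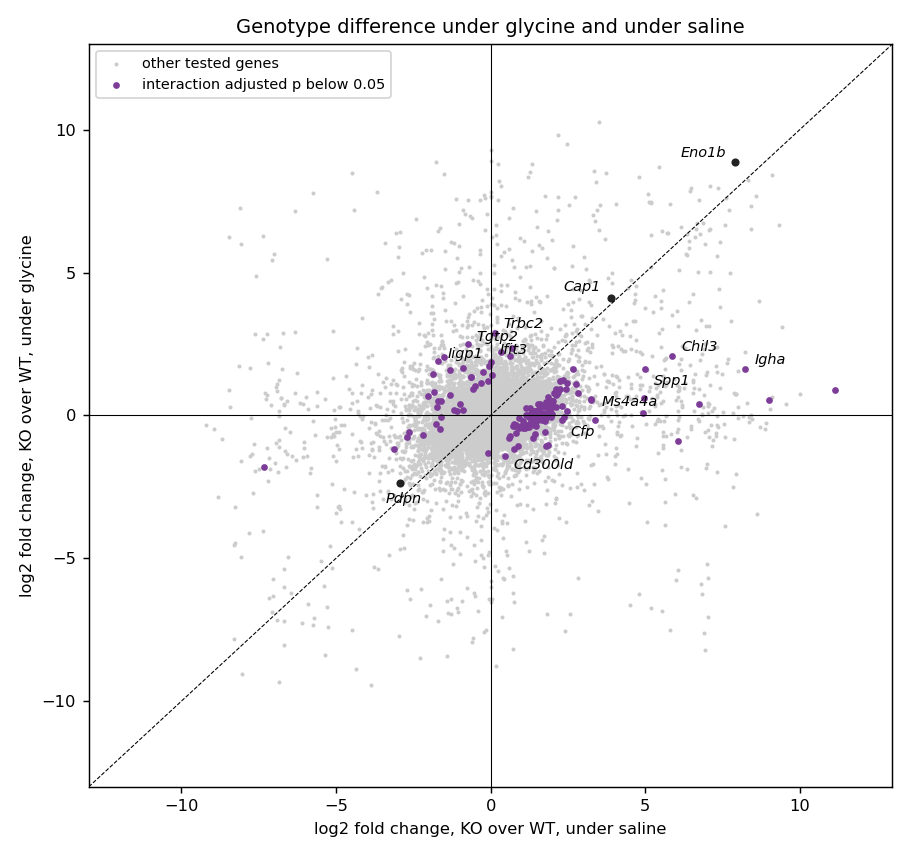
Log2 fold change of KO over WT under saline (x axis) and under glycine (y axis) for 13928 genes; purple points are the 156 genes called in the interaction, black points are labelled genes that were not. Eno1b, Cap1 and Pdpn lie near the dashed line of equal difference, and Iigp1 lies left of 0 on the saline axis and above 0 on the glycine axis.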

How the data were processed

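Total RNA of aortic endothelial cells was sequenced in 12 libraries, 3 in each of 4 groups, after enrichment of mRNA, per the labels' protocols. The authors deposited 1 table with estimated counts and FPKM values per gene and library, and per the submitters' processing notes used RSEM, Bowtie2 2.2.8, StringTie 1.3.1 and HISAT2 2.1.0. Neither a build nor a counting strand is given in the sources used here. Reads of overlapping and antisense genes cannot be told apart. Of the authors' expected counts 10.4% were not whole, and all were rounded.

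edgeR 4.0.16 in R 4.3.3 was applied to all 12 libraries with TMM scaling, filterByExpr (13928 of 22013 entries tested) and a robust quasi-likelihood test of KO against WT under glycine, under saline, and of their difference (the interaction). The deposited FPKM values were tested as log2(value + 1) and log2(value + 0.1) with limma 3.58.1, and DESeq2 1.42.0 was an alternative test. The remaining alternatives were RLE scaling, no filter on low counts, a filter of 10 counts in 6 libraries, only the compared groups in the model, a replicate block, mitochondrial and haemoglobin genes left out, no robust option, and each library left out in turn. Where an adjusted p follows a log2 value alone in parentheses it is edgeR's, adjusted by Benjamini-Hochberg over all genes tested. Steps were tested on simulated data.

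Genes were named by a rule: the 12 largest rises and falls past an adjusted p of 0.05, with at least 5 CPM in the higher group, no overlap between genotypes and a symbol that is no predicted locus or variable segment; the called members with the smallest p in each gene list; the genes with the smallest interaction p; those called in both treatments; and Glra2, Nos3, Cdh5 and Pecam1. For the largest rises and falls the lack of overlap was thus fixed by the rule and lends no support. The members and lists were chosen with earlier results of these data known. Promoter sequences are RefSeq's, on GRCm38.p6. Same-numbered KO and WT libraries had correlations of their deviations between −0.0339 and 0.0194. These values showed no pairing by number, but with 3 libraries per group they cannot exclude one. Library totals give 3 counts a level of 0.138 to 0.203 CPM in the glycine libraries. Some results are not reported here.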

Additional observations from a re-analysis of the deposited data

Results flagged for a closer look

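The genotype difference itself differed between glycine and saline for 156 genes by edgeR's interaction test, and 22 of the genes printed here with a log2 value were among them. The values below are the log2 difference of KO over WT under glycine minus that under saline. Among interferon-inducible genes it was 3.59 for Iigp1, 3.23 for Tgtp2, 1.89 for Ifit3 and 1.52 for H2-T22, and these 4 were called in all 12 leave-one-out fits. It was 1.78 for Ifit1, lost without KO saline 3 (adjusted p = 0.0545), and 1.44 for Igtp, lost without KO glycine 5 (0.0589) or KO saline 3 (0.0517). The values of 1.90 for Ifit2, 1.36 for Gbp2 and 1.67 for Zbp1 were lost in 7, 7 and 10 of the 12 fits, with the highest adjusted p without KO saline 3 (0.105, 0.0881 and 0.140).

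Among lymphocyte genes the difference was −6.62 for Igha, called in all 12 fits, and 2.74 for Trbc2, lost in 4. Among myeloid genes it was −3.81 for Chil3, −3.37 for Spp1, −2.71 for Ms4a4a, −2.46 for Cfp, −1.89 for Lyz2, −1.87 for Tmem106a and −1.84 for Mrc1, each called in all 12 fits. All of these were higher in KO under saline, while under glycine the log2 was smaller, and negative for Cfp (−0.16) and Mrc1 (−0.37). The difference was −1.88 for Cd300ld, lost in 2 fits, and −1.07 for Ctss, lost in 9 with the highest adjusted p of 0.0877 without KO saline 3. The value of 1.50 for Tpm1 was lost in 9 fits (highest 0.0987 without KO saline 3) and that of 1.28 for Stmn1 in 10 (highest 0.122 without KO saline 2).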

How the results depend on the processing

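Of 91 genes printed with a log2 value and called under glycine, 53 kept the call whichever glycine library was left out. The call was kept by 55 under all other settings and by 50 under every setting, and none of the 91 changed direction. For the largest rises and falls the naming rule's lack of overlap largely fixed the direction. Genes named without a value, such as Apoe, Oas1a, Oas1g, Tgtp1 and Ifit3b, were not followed in this way. Under glycine the 357 calls became 796 with DESeq2, 552 on FPKM with a pseudocount of 1 and 220 without WT glycine 4 and KO glycine 5 together, an alternative chosen after seeing the data. They were 139 to 391 with 1 library left out. With the replicate block, which the labels do not show to be a pairing, they were 219, of which 211 were shared with the 357. Under saline the 1573 calls were 1016 to 1491 with 1 library left out. The 156 interaction calls became 509 with DESeq2, 241 on FPKM with a pseudocount of 1, 47 with the replicate block, and 60 to 338 with 1 library left out. On FPKM with pseudocounts of 1 and 0.1 the median log2 of all genes was 0.06 and 0.10 under glycine, 0.15 and 0.25 under saline and −0.09 and −0.13 in the interaction, and the glycine calls with 0.1 were 359 higher and 77 lower. Direction changed only for uncalled genes. With 1 glycine library left out the log2 value ranged from −0.0813 to 0.124 for Tmem106a, from −0.0823 to 0.85 for Nos3, from −0.74 to 0.10 for Cdh5 and from −0.29 to 0.0460 for Pecam1, and without WT glycine 4 and KO glycine 5 together it was −0.0826 for Tmem106a and 0.11 for Cdh5. The counts per list under all settings were also chosen after seeing the data: with the replicate block the resident macrophage and lysosomal members lower in the interaction were 2 and 3 of 10, and the falling fibroblast genes 0. With DESeq2 the falling fibroblast genes were 14 and the falling collagens 11. The cause of these shifts was not tested.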

Other observations

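Of 30 tested proliferation genes 28 had a positive log2 (median 0.86) and 3 rose: Stmn1, Hmgb2 and Mcm3. Stmn1, which destabilises microtubules at mitosis, had 69.0, 81.7 and 75.5 CPM in KO glycine and 41.1, 30.7 and 27.5 CPM in WT glycine (1.19 ± 0.20, edgeR adjusted p = 0.00481). The genotypes were apart by more than the spread within either. Hmgb2, a chromatin protein of dividing cells, rose by 1.01 ± 0.19 (0.00920), and Mcm3, part of the replicative helicase, by 1.46 ± 0.35 (0.0406), the Mcm3 call being lost in all 6 leave-one-out fits (highest 0.140 without KO glycine 5).

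Nuclear genes of the respiratory chain had a positive log2 in 29 of 31 (median 0.44) and mitochondrially encoded genes in 0 of 13 (median −0.22), with Uqcrc1 the only one of either list called (0.57 ± 0.13, edgeR adjusted p = 0.0290), a call lost in all 6 leave-one-out fits (highest 0.140 without WT glycine 6). Among 19 circadian clock genes Rora, a nuclear receptor that activates clock genes, was the only one called, with 18.3, 16.3 and 22.1 CPM in KO glycine and 45.3, 52.6 and 44.5 CPM in WT glycine (−1.33 ± 0.25, 0.00933, and 0.0564 without KO glycine 5).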
